A study of Mus musculus with 12 samples.

Results

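Small groups of linked regions that the H3K27ac contact network of young mouse hepatocytes held, and that the old network lacked at every one of their bins, are described here. Members were chosen by their node number and by absence from the old network. A member is a clique of the young network, the authors' word for a set of linked 5 kb bins (nodes), that lies on an autosome, has 2 to 9 nodes and has no bin listed anywhere in the old network. Cliques of 2 nodes whose bins start more than 100 kb apart were left out. By this rule 1683 of the 5401 young cliques were members, with 4236 bins covering 21.18 Mb. Because absence was the rule, every value set against the old network below is a description, and "absent" means that the same 5 kb bin is not listed. In 495 of the 1683 members (29.4%) the neighbouring 5 kb bin was listed in the old network.

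Contacts were mapped by H3K27ac Hi-ChIP, which joins proximity ligation to immunoprecipitation with an antibody to histone H3 acetylated at lysine 27. The material was hepatocytes of male C57BL/6 mice aged 5 months (young) or 25 months (old), with 6 libraries per age from 2 biological replicates in 3 batches of technical repeats. Hepatocytes were the low-speed pellet of collagenase-perfused livers after red blood cells had been removed. Young and old mice came from different stocks, so stock and age cannot be told apart, and the submitters deposited 1 network per age, so no spread between replicates can be given, and no p-value. The old network held 40304 bins against 56928 in the young. The sequencing depth behind each network is unknown, and the part of depth in what follows was not tested. Of 22 hepatocyte transcription factors the young network listed 22, and of 85 markers of macrophages, endothelium, stellate cells, cholangiocytes and lymphocytes it listed 22.

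Acetylation of this lysine marks active promoters and active enhancers. An enhancer is a stretch of DNA that raises transcription of a gene from a distance, often by lying close to its promoter in the folded chromosome. Hi-ChIP with this antibody therefore recovers enhancer to promoter contacts as well as contacts of enhancers or promoters with each other. A small clique holds a few such regions, and the authors list genes with each clique or mark it as having no promoter. Their promoter window is not given. A listed gene need not have its RefSeq start in a bin of the clique: those of Per3, Agt, Cyp3a25 and Pate2, among others, lay outside.

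Promoters of 7 member genes are printed because they show the range of start regions that the members held, from CpG-poor starts of tissue-restricted genes to CpG-rich starts of widely expressed genes. Each runs from 250 bases before to 50 bases after the RefSeq start (build GRCm38.p6, the assembly of mm10), 5′ to 3′ on the gene's strand. Capitals mark matches, on either strand, to the 13 motifs searched (letters spelled out further on). The first is that of Cyp4a32, a fatty acid omega-hydroxylase (chr4:115600688-115600987, plus strand), followed by Prg3, an eosinophil granule proteoglycan (chr2:84987965-84988264, plus), Hus1, a subunit of the checkpoint clamp (chr11:9011142-9011441, minus), Chek1, the checkpoint kinase (chr9:36726609-36726908, minus), Sec63, a subunit of the protein translocation complex of the endoplasmic reticulum (chr10:42761246-42761545, plus), Clock, the circadian transcription factor (chr5:76304743-76305042, minus), and Sesn1, a stress-induced inhibitor of mTORC1 signalling (chr10:41810324-41810623, plus).
Cyp4a32: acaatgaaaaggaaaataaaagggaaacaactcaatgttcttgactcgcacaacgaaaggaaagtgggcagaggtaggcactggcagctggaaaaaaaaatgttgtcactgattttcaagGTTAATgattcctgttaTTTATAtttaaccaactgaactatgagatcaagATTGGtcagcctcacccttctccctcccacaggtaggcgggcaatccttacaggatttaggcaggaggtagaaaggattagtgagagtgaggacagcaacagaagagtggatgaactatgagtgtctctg
Prg3: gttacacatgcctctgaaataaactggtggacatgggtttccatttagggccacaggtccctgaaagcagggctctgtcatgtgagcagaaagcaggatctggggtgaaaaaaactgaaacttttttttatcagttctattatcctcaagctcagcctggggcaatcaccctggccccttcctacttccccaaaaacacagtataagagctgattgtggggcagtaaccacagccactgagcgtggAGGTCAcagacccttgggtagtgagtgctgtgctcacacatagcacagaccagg
Hus1: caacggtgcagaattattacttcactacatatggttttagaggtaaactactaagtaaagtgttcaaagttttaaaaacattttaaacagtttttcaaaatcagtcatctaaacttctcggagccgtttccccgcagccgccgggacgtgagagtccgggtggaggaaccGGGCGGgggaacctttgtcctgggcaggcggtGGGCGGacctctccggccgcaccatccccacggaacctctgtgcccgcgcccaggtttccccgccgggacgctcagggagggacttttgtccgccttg
Chek1: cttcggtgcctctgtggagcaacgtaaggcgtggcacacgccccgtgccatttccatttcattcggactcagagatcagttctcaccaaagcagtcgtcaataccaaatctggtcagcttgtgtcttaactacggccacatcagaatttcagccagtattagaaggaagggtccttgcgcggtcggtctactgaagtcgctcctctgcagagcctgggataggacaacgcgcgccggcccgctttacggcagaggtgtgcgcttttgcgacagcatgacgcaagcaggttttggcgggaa
Sec63: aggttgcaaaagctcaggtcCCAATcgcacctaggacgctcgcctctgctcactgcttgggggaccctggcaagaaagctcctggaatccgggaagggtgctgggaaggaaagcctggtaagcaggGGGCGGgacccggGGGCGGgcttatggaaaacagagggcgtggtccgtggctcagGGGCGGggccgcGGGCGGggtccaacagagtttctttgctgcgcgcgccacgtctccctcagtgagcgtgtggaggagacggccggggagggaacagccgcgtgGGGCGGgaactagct
Clock: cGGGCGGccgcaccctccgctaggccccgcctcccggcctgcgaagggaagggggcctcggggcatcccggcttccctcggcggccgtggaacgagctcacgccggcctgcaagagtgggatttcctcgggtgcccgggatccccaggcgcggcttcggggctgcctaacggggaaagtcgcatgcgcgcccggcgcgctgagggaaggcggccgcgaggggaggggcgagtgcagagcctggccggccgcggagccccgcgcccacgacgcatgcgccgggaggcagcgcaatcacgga
Sesn1: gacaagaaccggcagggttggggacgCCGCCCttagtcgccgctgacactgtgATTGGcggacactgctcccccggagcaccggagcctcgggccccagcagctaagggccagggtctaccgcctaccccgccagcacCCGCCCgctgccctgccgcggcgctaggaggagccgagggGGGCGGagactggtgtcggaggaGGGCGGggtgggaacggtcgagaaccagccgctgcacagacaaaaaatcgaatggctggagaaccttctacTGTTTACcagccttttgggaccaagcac
The windows of Cyp4a32 and Prg3 held 3 and 1 CpG dinucleotides. The Hus1, Chek1, Sec63 and Sesn1 windows held 21, 22, 23 and 24, and that of Clock held 42. Sec63 had 5 GC boxes, the leftmost bases of which lay at -124, -111, -69, -57 and +36 from the start (the start is +1). Sesn1 had 4 GC boxes, at -224, -112, -72 and -49, and Hus1 had 2, at -80 and -48. Chek1 held none of the 13 motifs in this window. The only match in Prg3 was AGGTCA at -4, and Cyp4a32 had TATAAA on the minus strand at -113, CCAAT on the minus strand at -80 and GTTAAT at -130.

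The share of young cliques without an old bin was lower in larger cliques. Among all young autosomal cliques of 2 to 9 nodes that met the distance limit, 1683 of 3256 were absent from the old network (51.7%, Wilson 95% interval 49.97 to 53.4). Such intervals cover counting error only, and neighbouring cliques are not independent. Of 1761 young pairs, 1191 were absent (67.6%, 65.4 to 69.8). The share was 48.8% of the 617 cliques of 3 nodes, 37.5% of the 275 of 4 nodes and 14.6% of the 603 of 5 to 9 nodes (12.0 to 17.6). Above the limit of the rule it was 12 of 1558 cliques (0.770%), the largest of which had 12 nodes. Just inside the limit were 5 absent cliques of 8 nodes and 8 of 9 nodes, and just outside it were 3 of 10 nodes (chr13:102845001-102910000 and chr6:141475001-141580000 without a gene, and chr15:41735001-41965000 with Gm26854). For pairs, 24 members had starts 95 or 100 kb apart, and 30 absent pairs at 105 or 110 kb fell outside the rule.

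The same count with the ages exchanged gave lower shares at each size class. The old network held fewer bins than the young (40304 against 56928), and the part of that difference in these shares was not tested. Of 4319 old autosomal cliques of 2 to 9 nodes, 1185 had no bin in the young network (27.4%, 26.1 to 28.8). Pairs again led, with 38.9% of 2509, and the share was 18.5% for 3 nodes, 10.2% for 4 nodes and 3.84% for 5 to 9 nodes (2.61 to 5.61). As a background, 44.2% of the 56365 young autosomal bins were absent from the old network, and members held 17.0% of those absent bins. The matching share of old bins was not counted. Between chromosomes the member share of small young cliques ran from 44.3% on chromosome 7 to 60.7% on chromosome 13 (52.6 to 68.3).

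**Figure D1:**
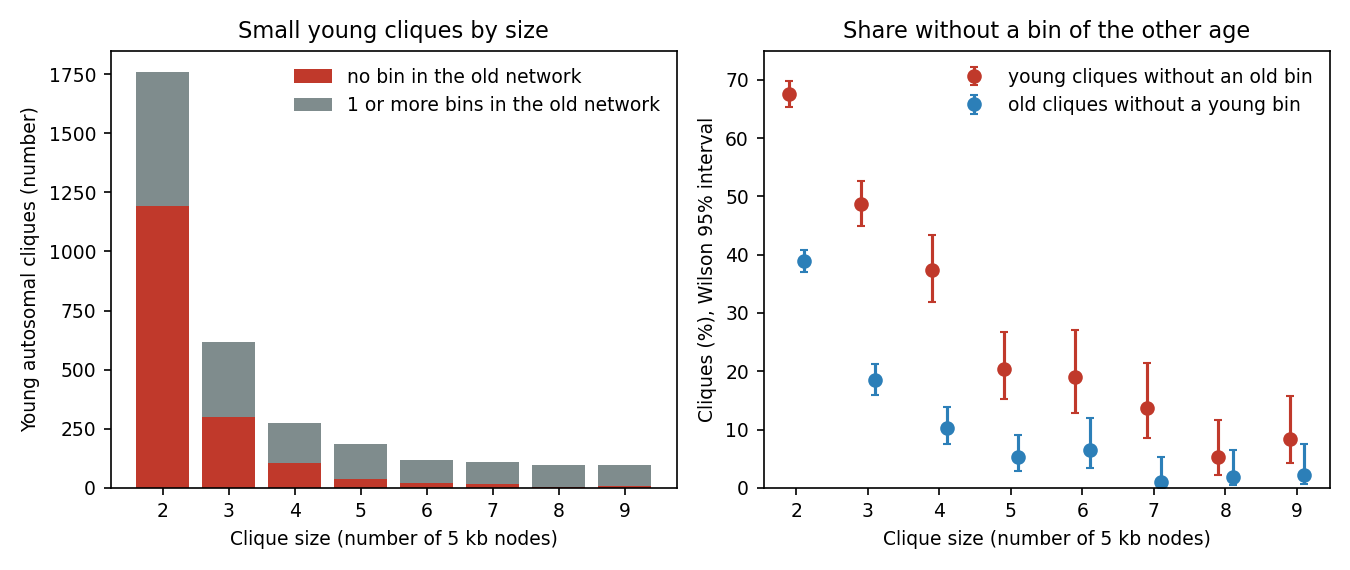
Left, number of young autosomal cliques of each size (2 to 9 nodes of 5 kb) without (red) and with (grey) a bin in the old network. Right, percent of young cliques without an old bin (red) and of old cliques without a young bin (blue), with Wilson 95% intervals. Pairs stand highest at both ages, at 67.6% and 38.9%, and the red points lie above the blue at every size, with overlapping intervals at 8 and 9 nodes.

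Most members joined bins that lie close together. In part the rule sets this, since it left out 305 absent pairs with starts more than 100 kb apart. The pairs used for comparison met the same limit. Of the 1191 member pairs, 799 had starts exactly 15 kb apart (67.1%, 64.4 to 69.7), the most frequent distance, and 15 had starts 10 kb apart, the shortest seen. Among the 570 young pairs that kept an old bin (retained pairs), 62.3% had starts 15 kb apart (58.2 to 66.2), an interval that overlaps that of the members. Old pairs without a young bin were more often at 15 kb, 783 of 975 (80.3%, 77.7 to 82.7). Starts more than 20 kb apart were found in 23.2% of member pairs, 26.5% of retained pairs and 11.8% of old pairs without a young bin. The median span was 20 kb for pairs in both member and retained classes. With 4 nodes it was 95 kb in members (interval of the median 80 to 135) and 70 kb in retained cliques (55 to 90). The widest member spanned 980 kb.

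Members of 2 to 7 nodes listed protein-coding genes less often than young cliques of the same size that kept an old bin. Gene listing was not used by the rule. Any gene name was listed by 670 of 1683 members (39.8%, 37.5 to 42.2) and by 974 of 1573 retained small cliques (61.9%, 59.5 to 64.3), but the retained cliques were larger, so the classes are set side by side by size. A protein-coding gene was listed by 25.0% of member pairs (22.6 to 27.6) and 36.3% of retained pairs (32.5 to 40.3). With 3 nodes the shares were 27.9% and 43.0%, and with 4 nodes 35.9% and 57.6%. With 5 to 9 nodes they were 50.0% of 88 members (39.8 to 60.2) and 70.5% of 515 retained cliques (66.4 to 74.3). In these 4 size classes the intervals of members and retained cliques did not overlap. The last class pools sizes, and members in it were the smaller: at 5, 6 and 7 nodes the shares were 44.7%, 45.5% and 33.3% of members against 59.7%, 67.02% and 75.5% of retained cliques. The intervals of these single sizes overlapped at 5 and 6 nodes and not at 7. Any gene name was listed by 71.1% of 5-node cliques in both classes. A protein-coding gene was listed at 8 nodes by 4 of 5 members against 73.6% of retained cliques, and at 9 nodes by 8 of 8 against 83.9%. By protein-coding genes the few largest members thus did not follow the order, with overlapping intervals. Old pairs without a young bin gave 26.7% (24.0 to 29.5), close to the member pairs.

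The RefSeq annotation gave the same order for sizes up to 7 nodes. Of member bins, 67.8% overlapped the body of a protein-coding gene (66.4 to 69.2), against 75.5% of retained bins (74.4 to 76.5). It was 70.7% against 77.9% in pairs and 64.0% against 75.6% in the pooled cliques of 5 to 9 nodes. Among single sizes, 8-node members lay above retained cliques (85.0% of 40 bins, 70.9 to 92.9, against 74.6%) and 9-node members close to them (73.6% of 72 bins, 62.4 to 82.4, against 74.2%). A start site of the RefSeq promoter table lay in 440 of 4079 member bins (10.8%, 9.87 to 11.8) and in 990 of 6024 retained bins (16.4%, 15.5 to 17.4), chromosome 18 not being covered by that table. Most members with a start thus joined 1 promoter bin to bins without one: 2 or more bins with a start were found in 58 of 375 members with any start (15.5%). In cliques of 3 to 9 nodes this was 33 of 138 members (23.9%, 17.6 to 31.7) and 195 of 511 retained cliques (38.2%, 34.1 to 42.4), whereas pairs gave 10.5% and 11.2%.

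**Figure D2:**
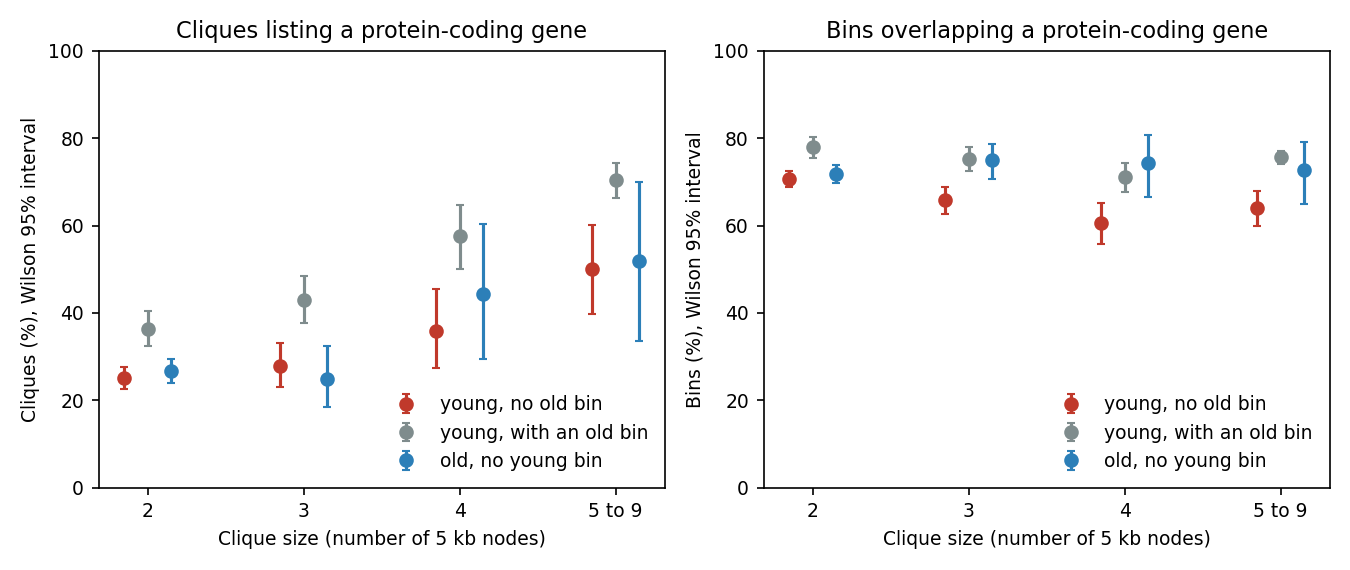
Percent of cliques that list a protein-coding gene and percent of their 5 kb bins that overlap one, by clique size, for members, for retained young cliques and for old cliques without a young bin, with Wilson 95% intervals. Members lie below retained cliques in both measures in these 4 size classes, at 25.0% against 36.3% of pairs for listed genes, and the last class pools sizes 5 to 9.

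Members often lay near or among old bins. An old bin lay between the outermost bins of 425 members (25.3%). The median distance from a member to the nearest old bin was 30 kb, with quartiles of 5 and 130 kb and a maximum of 8720 kb. By distance, 495 members were next to an old bin, 685 (40.7%) were 10 to 100 kb away and 503 (29.9%) were more than 100 kb away, 46 of these more than 1 Mb. The old bin beside an adjacent member was itself also a young bin in 354 of the 495 cases (71.5%), and in 101 (20.4%) it belonged to an old clique of 10 nodes or more. Old cliques without a young bin had the same median distance to the other network, 30 kb, with 27.6% adjacent and 21.6% beyond 100 kb. Members more than 100 kb from an old bin listed a gene in 42.5% of cases and adjacent ones in 35.8% (overlapping intervals of 38.3 to 46.9 and 31.7 to 40.1), whereas the share of bins in the body of a protein-coding gene ran the other way, at 63.5% beyond 100 kb (60.9 to 66.1) and 72.5% in adjacent members (69.9 to 74.9).

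**Figure D3:**
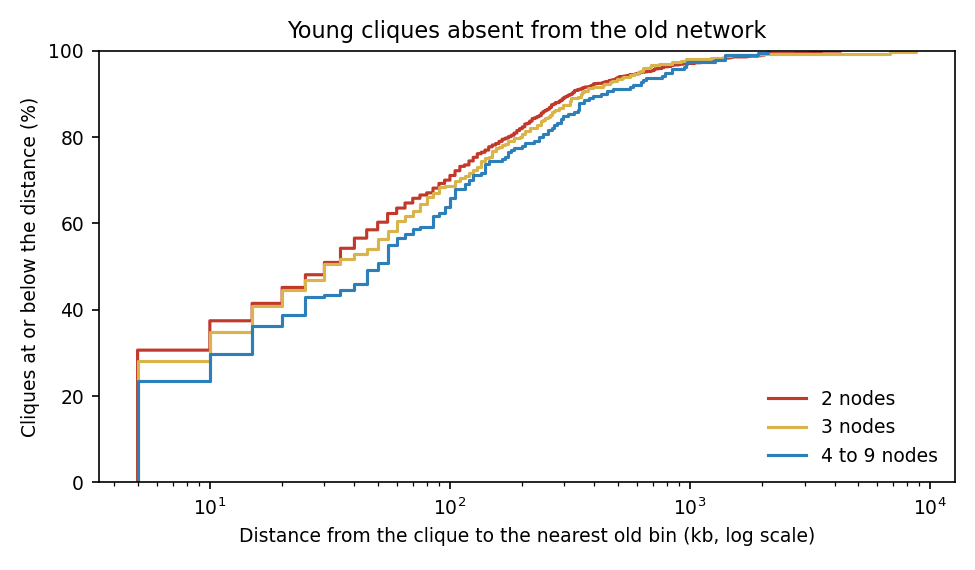
Cumulative percent of members by the distance from the clique to the nearest bin of the old network (kb, logarithmic axis), for members of 2, 3 and 4 to 9 nodes. The curves start at 5 kb, the neighbouring bin, where 30.6% of pairs lie, and 29.9% of all members lie beyond 100 kb.

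Members also lay near other young cliques. A bin of another young clique was next to 854 members (50.7%, 48.4 to 53.1) and next to 917 retained cliques (58.3%, 55.8 to 60.7). In pairs this was 50.5% and 62.8%. Between the outermost bins of a young clique of 10 nodes or more lay 360 members (21.4%) and 260 retained cliques (16.5%), but pairs alone gave 25.0% and 26.5%, with overlapping intervals. By span, 420 of the 1683 members were in 192 stretches of overlapping or touching members, the longest of 4 cliques. When gaps of 50 kb were bridged, the longest stretch held 6 cliques and 15 bins at chr14:21295001-21465000, and no gene was listed there.

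Some members had an old bin beside every one of their own bins. In 125 members (7.43%) every bin was next to an old bin. In 109 (6.48%) a single old clique had a bin beside every bin of the member, though bins of other old cliques could lie there too. That old clique, the largest where several qualified, had 2 nodes in 40 of the 109 (36.7%) and more in the others. For most it was thus larger than a pair. Of the 109, 106 were pairs, and 91 had an old bin, of any old clique, on the same side of every bin. Clock was one of these: the young pair was chr5:76285001-76290000 and chr5:76300001-76305000, and the old pair was chr5:76290001-76295000 and chr5:76305001-76310000. The Clock promoter printed above runs over the border between the second young bin and the second old bin, and its start lies in the young one. Per3, a repressor of the same circadian loop, had young bins starting at 151045001 and 151060001 on chromosome 4 and old bins starting at 151040001 and 151055001. The Per3 start lies in the first of these old bins and in no bin of the young pair. Both genes were listed in a clique of 2 nodes at each age, so for these members the gene was listed at the same clique size in both networks. Psat1, which makes serine from a glycolytic intermediate and was chosen after its values were seen, had a young pair starting at 15900001 and 15925001 on chromosome 19 around an old pair starting at 15905001 and 15920001.

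For most genes of the members, the old network listed no clique at all. Members listed 1022 names, of which 594 resolved to protein-coding genes, 6.84% of the 8690 listed in the young network. Of these 594 genes, 564 (94.9%) were in no old clique, against a background of 28.0% of all young-listed protein-coding genes and 26.2% of the 1290 genes of retained small cliques. Absence of the bins was the rule, so this count is part of the choice and nothing is read from it. By gene body, widened by 2500 bp on each side, an old bin lay in 154 of the 594 genes and 440 (74.1%) had none, against 10.5% of the retained genes, a measure that the rule also bears on. All 30 member genes that an old clique did list belonged to members adjacent to an old bin. Their old cliques had 2 nodes at the median, 19 of the 30 had 2 or 3 nodes and 7 had 10 or more.

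Among those 7 was Agt, chosen after its values were seen, which encodes angiotensinogen, a plasma protein made by hepatocytes. Its young member pair was chr8:124520001-124525000 and chr8:124570001-124575000. The Agt start lies in neither of these bins but in the adjacent bin chr8:124565001-124570000. That bin was in an old clique of 25 nodes that also listed Agt, so the clique listing the gene was the larger one at the old age. Cox16, a cytochrome oxidase assembly factor, was likewise in a young pair and an old clique of 49 nodes, and Alox12, a lipoxygenase, in a young pair and an old clique of 26 nodes (both also chosen after their values were seen). For these genes the member is a small clique at the edge of a bin that the old network did hold.

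Member genes were longer than those of larger cliques. Their median length was 29.0 kb (interval of the median 25.5 to 32.5), against 23.1 kb for genes of retained small cliques (21.7 to 25.2), 17.8 kb for genes of young cliques of 10 nodes or more (17.1 to 18.4) and 15.3 kb for protein-coding genes listed at neither age (14.6 to 15.9).

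The largest members, those of 8 or 9 nodes, numbered 13 and are taken one by one. The clique of Cyp4a14, Cyp4a10 and Cyp4a32 had 8 nodes at chr4:115495001-115610000. These cytochromes P450 are fatty acid omega-hydroxylases and classical targets of the nuclear receptor PPAR-alpha in liver. The bins started at 115495001, 115510001, 115515001, 115555001, 115570001, 115595001, 115600001 and 115605001, and they lay 10 to 110 kb from the nearest old bin. The old network held near them a clique of 3 nodes that listed Gm12849 and had bins at chr4:115475001-115480000 and chr4:115485001-115490000, the second of which overlaps Cyp4a14 (chr4:115486200-115496158). Cyp4a10 and Cyp4a32 had no old bin in their bodies. The Cyp4a32 start, in the CpG-poor promoter shown above, lay in a member bin. A second member, the pair chr4:115625001-115645000, listed the neighbouring Cyp4b1.

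Chek1 and Stt3a were listed by an 8-node clique at chr9:36725001-36885000 that was far from the old network. Stt3a is a catalytic subunit of the oligosaccharyltransferase that glycosylates proteins in the endoplasmic reticulum. Every one of its 8 bins was 265 to 420 kb from the nearest old bin, and neither gene had an old bin in its body. Hus1, whose product acts with the checkpoint pathway upstream of Chek1, was in a 9-node clique at chr11:8975001-9140000 with Upp1, a uridine phosphorylase, and Gm11992. Here 2 old bins, chr11:9035001-9040000 and chr11:9050001-9055000, lay inside the clique's span and formed an old pair that listed Sun3. Of the 9 young bins 2 were next to these and 7 were 25 to 85 kb away.

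**Figure D4:**
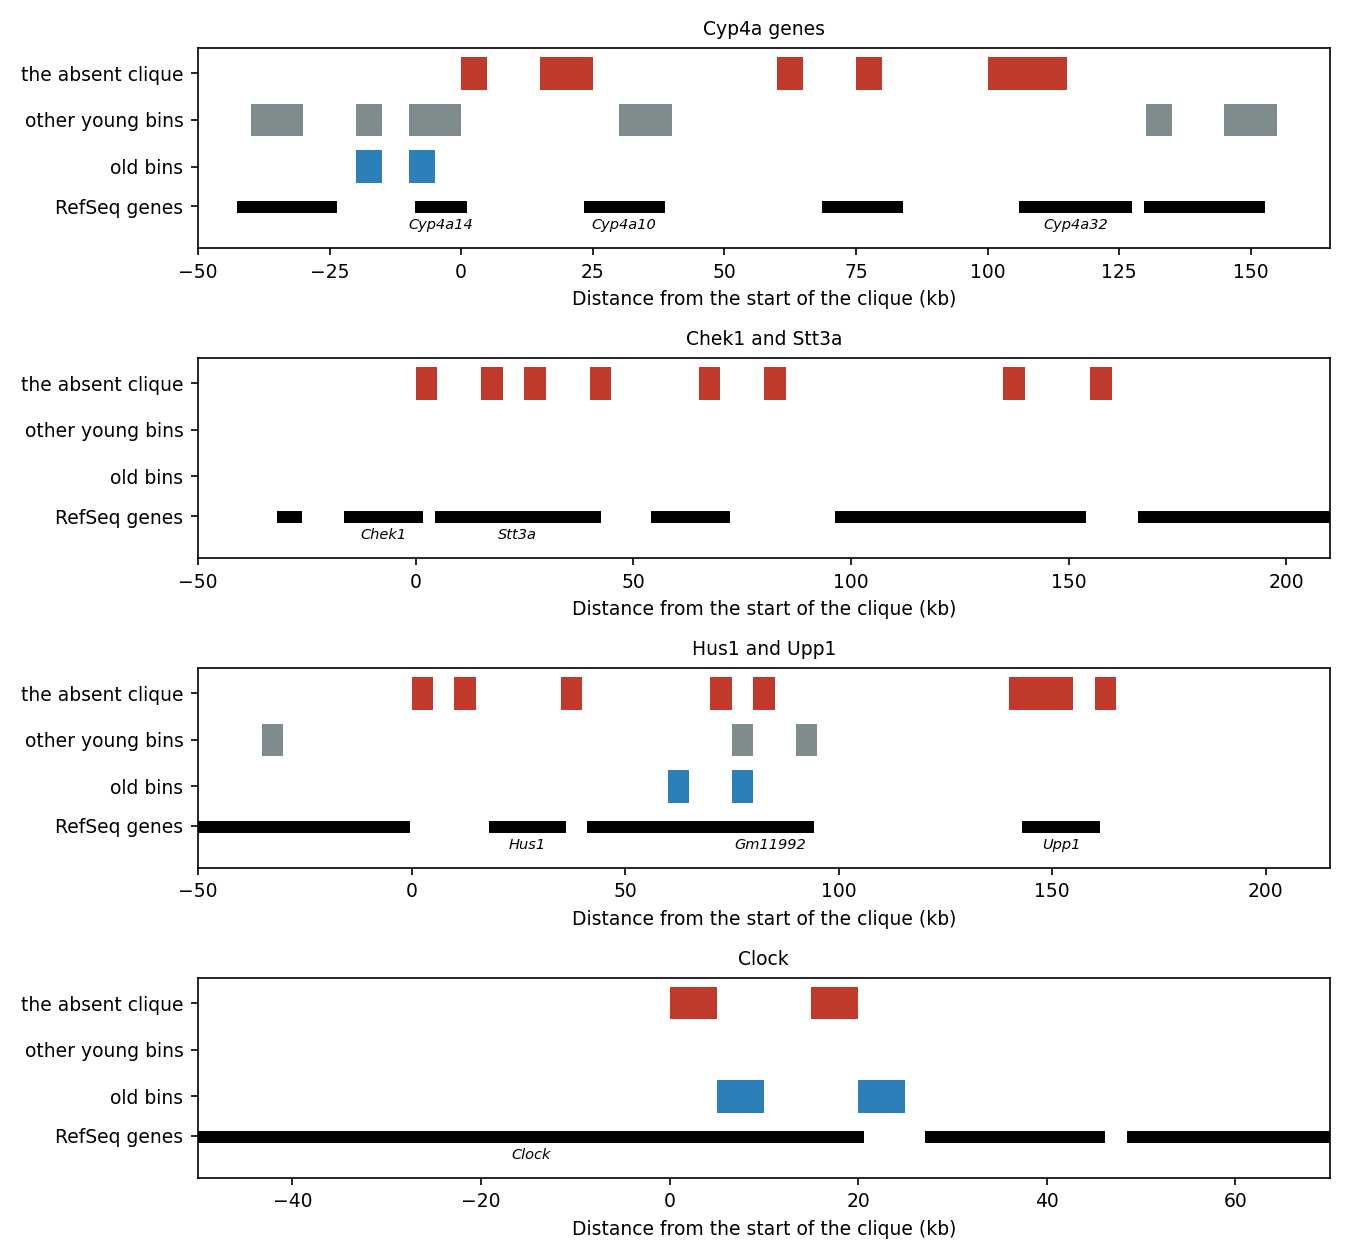
Bins of 5 kb around 4 members, by distance from the start of the clique (kb): bins of the absent clique (red), other young bins (grey), old bins (blue) and RefSeq gene bodies (black, overlapping or touching genes merge, listed genes named). Around Chek1 no other young bin and no old bin falls within 50 kb, 2 old bins lie beside the Cyp4a clique and 2 within the span of the Hus1 clique, and both Clock bins have an old bin directly to their right.

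Sec63, Vwa8, Prg3 and Zfp697 were each in a compact clique of 9 nodes. Sec63 had its clique at chr10:42695001-42765000, with the start in the last of the 9 bins and the old network 10 kb beyond that bin. The other 8 bins lay upstream of the start, 15 to 75 kb from the nearest old bin, and 2 old bins of a 2-node clique, starting at 42770001 and 42785001, lay within the Sec63 body. Vwa8, which encodes a mitochondrial ATPase, had a clique at chr14:78835001-78910000, 140 kb from the old network, whose nearest bins, of a 2-node clique, started at 79045001 and 79060001 and also lay within the Vwa8 body. The Prg3 clique at chr2:84945001-85015000 was 10 kb from it, and the Zfp697 clique at chr3:98370001-98445000 was 60 kb from it.

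The other large members were wide or lay among old bins. The 9-node clique that listed Slc27a3, a member of the fatty acid transport protein family, spanned 300 kb at chr3:90090001-90390000, and 13 old bins lay between its outermost bins. That of Sox6, a transcription factor, and 1110004F10Rik spanned 310 kb at chr7:115730001-116040000, and 4 old bins of 2-node cliques lay in the Sox6 body. The clique of Gm20939 lay at chr17:94750001-94875000. An 8-node clique at chr1:135145001-135315000 listed 5 protein-coding genes, among them Arl8a, a lysosomal GTPase, Elf3, an epithelial transcription factor of the ETS family, Gpr37l1, a receptor, and Rnpep, an aminopeptidase. Its span held 3 old bins, and 2 old bins of a 4-node clique without a listed gene lay in the body of Rnpep. Ggact, an enzyme that breaks down crosslinked peptides, was in an 8-node clique spanning 390 kb at chr14:122535001-122925000. An old bin of a 2-node clique, starting at 122900001, lay in the Ggact body. The fifth 8-node member, at chr6:32870001-33000000, listed no gene.

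Hepatocyte genes were rarely listed by members, and most were in cliques too large for the rule. In 8 lists of hepatocyte function, 178 genes were listed in the young network, of which 3 were in members (1.69%, 0.575 to 4.84), beside 6.84% of all young-listed protein-coding genes. These lists were chiefly in large cliques: 162 of the 178 were in cliques of 10 nodes or more, against 6507 of all 8690. Of the 14 hepatocyte genes in any small clique, 3 were in members (21.4%, 7.57 to 47.6). This interval holds the share of all genes, 594 of 1883 (31.5%), so no shortage among small cliques is read from it. No transcription factor, plasma protein, bile acid, lipid synthesis, glucose or amino acid gene of those lists was in a member. The 3 were Cyp4a10 and Cyp4a14, above, and Cyp3a25, a xenobiotic-metabolizing P450 with a pair at chr5:146010001-146075000, 30 kb from the old network. The Cyp3a25 start lay outside this pair, and an old bin of a 10-node clique lay in the gene body widened by 2500 bp. Over all names, 9 of 58 young-listed cytochromes P450 were in members (15.5%, 8.38 to 26.9), beside 7.03% of all 14532 names. Cyp4a10, Cyp4a14 and Cyp4a32 shared a clique, and Cyp2c67 and Cyp2c68 shared another. The interval treats names as independent and is thus too narrow, so no excess is read from it. Apart from Cyp3a25 and the Cyp4a genes, those in members were chosen after their values were seen. They were Cyp2c67 and Cyp2c68 in a 3-node clique 440 kb from the old network, Cyp2j11 in a pair 205 kb from it, Cyp26c1 in a 3-node clique 10 kb from it, and Cyp4b1. In the Cyp26c1 body, widened likewise, lay an old bin of a 9-node clique. P450 genes of a subfamily are near-identical in places, and treatment of reads shared by copies was not given in the sources used here.

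Signalling genes were listed by members at 10 of 250 (4.0%, 2.19 to 7.21) over 14 lists, an interval that holds the 6.84% of all young-listed genes, and 214 of the 250 were in cliques of 10 nodes or more. Of the 31 in any small clique 10 were in members, beside 594 of 1883 for all genes. Among ligands, Jag1, which activates Notch receptors on the next cell, had a 4-node clique spanning 620 kb at chr2:137115001-137735000, 2110 kb from the nearest old bin. Wnt5a, a ligand of noncanonical Wnt signalling, had a 4-node clique at chr14:28120001-28510000, and its last bin was next to a bin of an old pair that also listed Wnt5a. Of receptors, Tgfbr3, the TGF-beta co-receptor betaglycan, had a pair at chr5:107270001-107290000, 470 kb from the old network. Axin2, a Wnt target whose product restrains the pathway, had a 6-node clique spanning 580 kb at chr11:108450001-109030000, 55 kb from the old network.

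The other members of those lists, beside Clock and Per3 above, were both sestrins, Rictor and Trim24. Sesn1 was in a young pair with bins starting at 41810001, which holds the promoter printed above, and 41890001 on chromosome 10. An old pair with no gene listed had bins starting at 41800001 and 41885001, so only the second bin had an old neighbour. Sesn3, a second sestrin, was in a 3-node clique spanning 415 kb and next to an old bin. Rictor, the defining subunit of mTORC2, was in a pair 155 kb from the old network. Trim24, a coregulator of nuclear receptors, was in a 4-node clique spanning 315 kb, 55 kb from it.

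Lists for other liver cell types contributed 3 genes, out of 22 listed in the young network (13.6%, 4.75 to 33.3) and 85 in the lists, an interval that holds the 6.84% of all young-listed genes. They were Reln, a matrix protein of stellate cells, Pkhd1, the fibrocystin gene of bile duct cells, and Ikzf3, a lymphocyte transcription factor, each in a pair. Of the markers of macrophages 15 of 18 were listed in neither network, as were 11 of 18 for endothelium, 13 of 17 for stellate cells, 8 of 14 for cholangiocytes and 13 of 18 for lymphocytes. The part of such cells in the members was not tested.

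**Figure D5:**
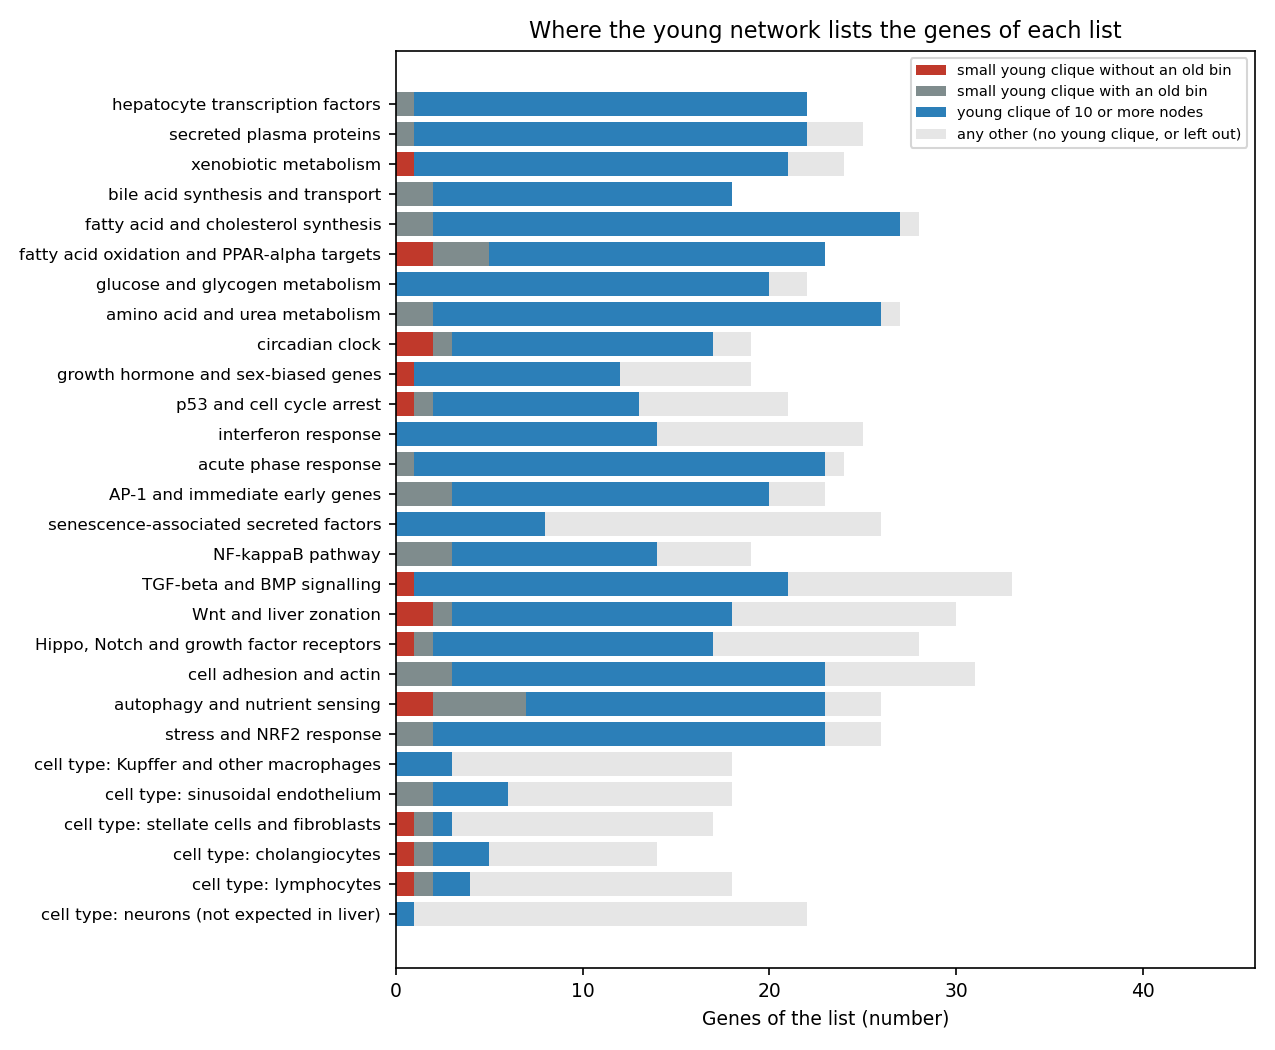
Number of genes of each list that the young network listed in members (red), in retained small cliques (grey) and in cliques of 10 nodes or more (blue), with the remainder of the list in pale grey. Red is absent from 16 of the 28 lists and reaches at most 2 genes in any list, whereas blue makes up most of each hepatocyte list.

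Members farthest from the old network stood in regions where that network was empty over megabases. Among members that listed a protein-coding gene, the 10 at the greatest distance are named. They were led by Rasa1, a GTPase-activating protein of Ras, whose pair was 3515 kb from any old bin. Next was Ccnh, the cyclin of the CDK-activating kinase, whose pair lies nearby at chr13:85170001-85190000 and was 3430 kb away. Btbd3 (3250 kb) and Jag1 (2110 kb) lie near each other on chromosome 2, and Crisp2 (2040 kb), 9130008F23Rik (1965 kb) and Cenpq (1900 kb) on chromosome 17, so these distances are not independent. Nox4, a hydrogen peroxide-producing NADPH oxidase, had a 5-node clique at chr7:87205001-87250000, 1915 kb from any old bin. Rad23b, a DNA damage recognition factor, had a 5-node clique 1405 kb away, and Msl3l2 had a pair 1365 kb away.

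Apart from the 8-node clique on chromosome 1, the members that listed most protein-coding genes were small. A clique of 3 nodes at chr4:108620001-108850000 listed Btf3l4, Cc2d1b, Kti12 and Txndc12. A pair at chr9:35555001-35570000, 290 kb from the old network, listed Ddx25, Hyls1, Pate2 and Pus3, and a 4-node clique at chr13:100650001-100730000, 35 kb from it, listed Rad17, Ak6, Taf9 and Ccdc125. Another 4-node clique, at chr9:63375001-63605000, listed Map2k5, Iqch, Aagab and 2300009A05Rik. Among the widest members that listed a protein-coding gene, that of Foxp2 spanned 465 kb and lay 1225 kb from the old network. In contrast, 16 old bins lay between the bins of the 540 kb clique of Pabpc1 and 28 between those of the 475 kb clique of Cpne3.

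Noncoding RNA genes were also listed. Members named 12 microRNA genes out of 344 in the young network (3.49%, 2.01 to 6.00, beside 7.03% of all names), of which 9 matched the RefSeq table with 14 mature sequences, and no seed was shared between them. The other names were Mir709, Mir328 and Mir5112. Printed are the mature sequences of a microRNA abundant in liver (miR-148a, both arms), of one far from the old network (miR-28b) and of one whose seed is widely shared (miR-1961). These microRNAs, and Terc below, were chosen after their values were seen. Capitals mark the seed, bases 2 to 8.
miR-148a-3p: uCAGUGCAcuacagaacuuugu
miR-148a-5p: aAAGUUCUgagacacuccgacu
miR-28b: aGGAGCUCacaaucuauuuag
miR-1961: uGAGGUAGuaguuagaa
Mir148a was listed by a 4-node member at chr6:51270001-51325000, 55 kb from the nearest old bin. Its hairpin at chr6:51269812-51269910, minus strand, ended 91 bp before the first member bin and thus lay in a bin that is not part of the clique. The seed of miR-148a-3p is shared with miR-148b-3p and miR-152-3p in the table, and neither of these was in a member. Mir28b lay within a 5-node member at chr8:73010001-73210000, 290 kb from the old network, and Mir1961 in a pair at chr5:92770001-92790000 that was next to an old bin. The seed of miR-1961 was the same as that of all 10 let-7 5p entries of the table. Terc, the RNA template of telomerase (chr3:96414437-96414833), was listed by a 5-node member at chr3:96275001-96440000 and lay in a member bin 15 kb from the nearest old bin.

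By sequence, member promoters were like those of other genes in the young network. In 409 member promoters the median GC content was 60.7% and the median number of CpG dinucleotides in the 300 bases was 22, against 61.0% and 21 in 949 promoters of retained small cliques and 51.7% and 6 in 9802 promoters of genes listed at neither age. At least 10 CpG dinucleotides were found in 81.7% of member promoters (77.6 to 85.1), 84.8% of retained (82.4 to 87.0) and 40.3% of unlisted ones. Thus the starts of Cyp4a32 and Prg3 printed above are on the CpG-poor side of the members, and the other 5 are in the larger class.

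Motif shares followed that composition. The motifs, searched on both strands, were the GC box GGGCGG, the CCAAT box CCAAT, the TATA box TATAAA, the ETS site CCGGAAG, the E-box CACGTG, the nuclear receptor half-site AGGTCA, its direct repeat DR1 (AGGTCA repeated after a single free base), the FOXA site TGTTTAC, the HNF1 half-site GTTAAT, the AP-1 site TGANTCA, the CRE TGACGTCA, the D-box TTATGTAA and the YY1 site AAGATGGC. Each DR1 match also holds AGGTCA. The GC box was in 62.1% of member, 64.8% of retained and 46.3% of all 17492 protein-coding promoters. The ETS site was in 17.4%, 20.02% and 11.9%, and CCAAT in 35.5%, 37.7% and 39.0%. TATAAA was in 6.60% of member and 6.74% of retained promoters and in 13.3% of all. Sites read by hepatocyte factors were infrequent in each class: the HNF1 half-site was in 4.65% of member, 3.16% of retained and 6.29% of all promoters, the FOXA site in 3.42%, 3.27% and 2.94%, and AGGTCA in 12.5%, 12.2% and 14.5%. DR1 was in none of the 409 member promoters and in 9 of all 17492. The E-box was in 8.80%, 10.2% and 7.90%, AP-1 in 4.40%, 4.11% and 7.08%, CRE in 2.44%, 3.69% and 2.34%, the D-box in 0.489%, 0.738% and 0.909%, and YY1 in 3.18%, 5.06% and 3.22%. For each motif the member and retained intervals overlapped. Matches are letters in these windows and not sites of binding.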

How the data were processed

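The authors deposited 4 tables per the file headers: for each age, the nodes of 1 network with their positions, and the cliques with node number, node names and listed genes. The values used are positions and names (unit other), not counts or signal. Bowtie2 and HiC-Pro, without versions, and the builds mm10 and GRCm38 are named in the submitters' processing notes. Not given in the sources used here are the way libraries were combined, the loop caller, the clique method and the promoter window. Each age's network was treated as a pool of its 6 libraries.

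Bins were matched between ages by position on the 5 kb grid, in Python 3.11.15 with pandas 2.3.3, numpy 2.4.6 and SciPy 1.17.1, and plotted with Matplotlib 3.10.9. Young small cliques with an old bin (1573) and old small cliques without a young bin (1185) served for comparison. Distances run from bin start to bin start, so that neighbouring bins are 5 kb apart. Names were resolved to RefSeq genes of GRCm38.p6, by symbol or unique synonym, and promoters and microRNAs to RefSeq tables of that build. Shares have Wilson 95% intervals and medians have order-statistic intervals. The counting was tested on simulated data. No test was made, since each age has 1 network.

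The members and the 28 gene lists were chosen with earlier results of these data known. Genes are named by rule: up to 4 protein-coding genes of each member of 8 or 9 nodes and up to 4 members of each list. Among members listing a protein-coding gene, the rule also takes the first such gene of the 10 farthest from the old network. It further takes the 5 members with most protein-coding genes and the 5 widest that list one. Others are said to have been chosen after their values were seen. Alternatives tried were other node limits, no pair limit, the X chromosome, counting a neighbouring old bin as present, gene spans in place of the authors' gene column, and every listed name.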

Additional observations from a re-analysis of the deposited data

How the results depend on the processing

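The member count, 1683, was 1188 when a neighbouring old bin also counted as present, 1633 with at most 5 nodes, 1988 without the pair limit, 1737 with the X chromosome and 492 without pairs. Without pairs the share listing a gene was 49.6%, the median span 80 kb, the median distance to the old network 40 kb, the share with an old bin between its bins 30.9% and the share of bins in genes 64.2%. With members also free of neighbouring old bins, the median distance was 75 kb, the share with an old bin between was 6.40% and the share of bins in genes was 65.9%. Member genes in no old clique numbered 564, 440 by gene span and 982 over every listed name. By protein-coding gene, 1 member gene was in another young clique, and over every listed name 0 were. Of 100 named genes, 81 had the same old clique size by gene span and 19 another. In each of these the alternative's own construction sets the change. No paired analysis was possible because each network pools the libraries of its age, and for the same reason no replicate could be left out. Reads behind each network are unknown, so what depth would allow a bin to be listed could not be given.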

Other observations

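Genes that act in the replication checkpoint stood out on reading the member genes, and the 4 lists counted here were drawn up after those values were seen, so their shares describe a choice and carry no test. Of 10 young-listed genes of the checkpoint clamp, its loader and the checkpoint kinases, 4 were in members: Hus1, Hus1b, Rad17, which loads the clamp, and Chek1. Of 10 young-listed genes of the origin recognition, MCM and GINS complexes, which license and unwind replication origins, 3 were in members (Orc3, Mcm2 and Gins3), as were Msh3 of 5 mismatch repair genes and Ccne1 and Cdk1 of 10 cell cycle cyclins and kinases. Pooled, this was 10 of 35 (28.6%, 16.3 to 45.1), beside 6.84% of all young-listed protein-coding genes. Of the genes in any small young clique, members held 4 of 4 in the checkpoint list, 3 of 6 in the origin list, 1 of 3 in mismatch repair, 2 of 5 in the cyclin list and 10 of 18 pooled, beside 594 of 1883 for all genes. Distances from the nearest bin of the listing clique to the old network differed widely. They were 265 kb for Chek1, 205 kb for Hus1b, 85 kb for Msh3, 50 kb for Orc3 and 35 kb for Rad17. For Ccne1 and Gins3 they were 15 kb, for Cdk1 10 kb, and for Hus1 and Mcm2 5 kb. Bins holding the gene starts were farther off for Chek1 (420 kb), Msh3 (220 kb) and others, but not for Rad17, Mcm2 and Orc3. An old bin of a clique of 25 nodes that did not list Mcm2 lay in the Mcm2 body, and one of 23 nodes lay in that of Rad17. An old bin of a 2-node clique lay in the Orc3 body widened by 2500 bp.

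Further genes, chosen after their values were seen, include metabolic enzymes and plasma proteins. Hao1, the peroxisomal glycolate oxidase, was in a 5-node member 115 kb from the old network, Asns, asparagine synthetase, in a pair 320 kb from it, and Oxct1, an enzyme of ketone body use, in a 3-node member 495 kb from it. F13b, a subunit of coagulation factor XIII, was in a 4-node member 640 kb from the old network, and C6, a complement component, in a 4-node member 380 kb from it. Ifih1, a sensor of double-stranded RNA, was in a pair 240 kb away, and Drosha, which cuts microRNA precursors, was in a 5-node member next to an old bin.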
